A study of Mus musculus with 2 samples.

Results

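Wnt ligands, the receptors that bind them, and the secreted proteins that raise or block their activity were examined in total RNA-seq of embryonic mouse kidney. A total of 58 genes, listed by symbol and matched by Ensembl stable ID, were all found among the 43346 mouse genes of the deposited tables, and all 58 are annotated as protein coding. They fall into 7 roles: 19 Wnt ligands, 2 proteins of ligand processing, 10 Frizzled receptors, 5 co-receptors, 9 genes of the R-spondin axis, 10 secreted antagonists, and 3 targets or effectors. The kidneys came from healthy B6NCrl embryos at 16.5 days of development, with no allele or agent named, in 1 group of 2 biological replicates. Each replicate was a pool of embryos of both sexes. The pool of replicate 2 held 41 embryos, and the size of the other pool is not stated in the labels. No other condition is named, so levels were set against each other within the kidney and the 2 pools against each other.

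Wnt proteins are lipid-modified by Porcn, carried to the cell surface by Wls, and bound by a Frizzled receptor together with Lrp5 or Lrp6, which stabilises beta-catenin so that it acts with Tcf and Lef proteins on DNA. Other Wnt proteins act through Ror1, Ror2 or Ryk without beta-catenin. R-spondins bound to Lgr receptors hold back the ubiquitin ligases Znrf3 and Rnf43, which otherwise remove Frizzled from the membrane, and secreted antagonists of the Sfrp, Dkk, Wif and Notum families lower signalling outside the cell. In the mouse kidney, Wnt9b from the ureteric epithelium and Wnt4 in the forming nephron are known for their part in turning progenitors into epithelium, Wnt11 for its place at the ureteric tips, and Wnt7b for the medulla.

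Expected counts on mouse genes summed to 37900132 in replicate 2 and 34261328 in replicate 1, so that 10 counts on a transcript of 2 kb stood for 0.201 and 0.218 TPM. Every marker of the nephron progenitor, early nephron, podocyte, proximal tubule, ureteric tip, collecting duct, cortical stroma and endothelium lists reached 1 TPM in both libraries. The libraries differed in markers of several neighbouring tissues. The 4 gut markers had near equal sums of 15.3 TPM in replicate 2 and 15.0 TPM in replicate 1, but Vil1 carried nearly all of them. Vil1 had 1092 counts in replicate 2 and 1007 in replicate 1. Cdx2 had no count in either library, and Fabp2 (6 and 2 counts) and Cdx1 (11 and 7) had few, with more in replicate 2. The near equal sums are therefore those of Vil1 and not of the list. Sftpc, a lung surfactant gene, was at 225 TPM in replicate 2 and 0.49 TPM in replicate 1, and the 4 lung markers summed to 232 and 0.67 TPM, each of them higher in replicate 2 and Nkx2-1 with no count in replicate 1. Of 6 gonad markers, summed at 13.5 TPM in replicate 2 and 1.73 TPM in replicate 1, Foxl2 and Dmrt1 had no count in either library. Cyp17a1 (245 counts in replicate 2 and 1 in replicate 1), Insl3 (84 and 13) and Amh (23 and 1) were higher in replicate 2. Ddx4 was lower there, with 28 counts against 37 in replicate 1. The 6 adrenal cortex markers summed to 154 TPM in replicate 2 and 99.2 TPM in replicate 1, and the 5 adrenal medulla markers to 28.2 TPM in replicate 2 and 45.0 TPM in replicate 1. The 5 skeletal muscle markers summed to 168 TPM in replicate 2 and 79.5 TPM in replicate 1, a gap carried by Acta1 at 139 and 48.3 TPM, while Mylpf and Ttn were lower in replicate 2. The 5 markers of ureter mesenchyme and smooth muscle summed to 609 TPM in replicate 2 and 334 TPM in replicate 1, and they split: Acta2 (564 and 305 TPM), Myh11 and Myocd were higher in replicate 2, and Tbx18 and Tshz3 were lower. Levels below are therefore given for each library. In bulk tissue, fewer cells of a type and less RNA per cell cannot be told apart.

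The genes of the pathway were widely present, but the ligands were the role with the lowest median. Detection was set at 1 TPM (a unit scaled by transcript length and library) in both libraries. By that rule 42 of the 58 members were detected, or 72.4%, against 62.2% of all 21474 protein-coding genes. All 5 co-receptors, both genes of ligand processing and all 3 targets were detected, as were 9 of 10 antagonists, 8 of 10 Frizzled receptors and 6 of 9 genes of the R-spondin axis, but 9 of 19 ligands. In replicate 2 alone 44 members reached 1 TPM and in replicate 1 alone 43. The median level over the antagonists was 16.0 TPM in replicate 2 and 16.8 TPM in replicate 1, and over the Frizzled receptors 13.2 and 12.2 TPM. Over the co-receptors it was 8.33 TPM in replicate 2 and 8.56 TPM in replicate 1, over the R-spondin axis 6.08 and 6.53 TPM, and over the ligands 1.10 and 1.13 TPM. All protein-coding genes had a median of 5.46 TPM in replicate 2 and 5.43 TPM in replicate 1.

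On the scale of log2(TPM + 0.1), which understates differences of genes near 0, the median of the antagonists lay 3.70 ± 0.03 above that of the ligands (SD, n = 2). The median of the Frizzled receptors lay 3.40 ± 0.10 above it and that of the co-receptors 2.81 ± 0.0023 above it. The SD is between the 2 libraries and not over the genes of a role. The medians of the co-receptors and of the ligands were the values of 1 gene each, Ror2 and Wnt8b. For the R-spondin axis the difference was 2.40 ± 0.05 and for the targets 2.15 ± 0.26. Among detected members alone, which leaves out the ligands near 0, these differences were 1.44 for the antagonists, 0.77 for the Frizzled receptors, 0.10 for the co-receptors, 0.47 for the R-spondin axis and -0.57 for the targets, so that the last turned round. The sums over the antagonists were 274 TPM in replicate 2 and 278 TPM in replicate 1, over the Frizzled receptors 124 and 125 TPM, over the co-receptors 55.4 and 55.6 TPM, and over the ligands 99.8 and 97.6 TPM. Those of the other roles lay further apart, at 106 TPM in replicate 2 and 96.1 TPM in replicate 1 for ligand processing, 76.2 and 83.9 TPM for the R-spondin axis, and 27.6 and 31.8 TPM for the targets. No test was made over genes, because the members were picked as a list.

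**Figure D1:**
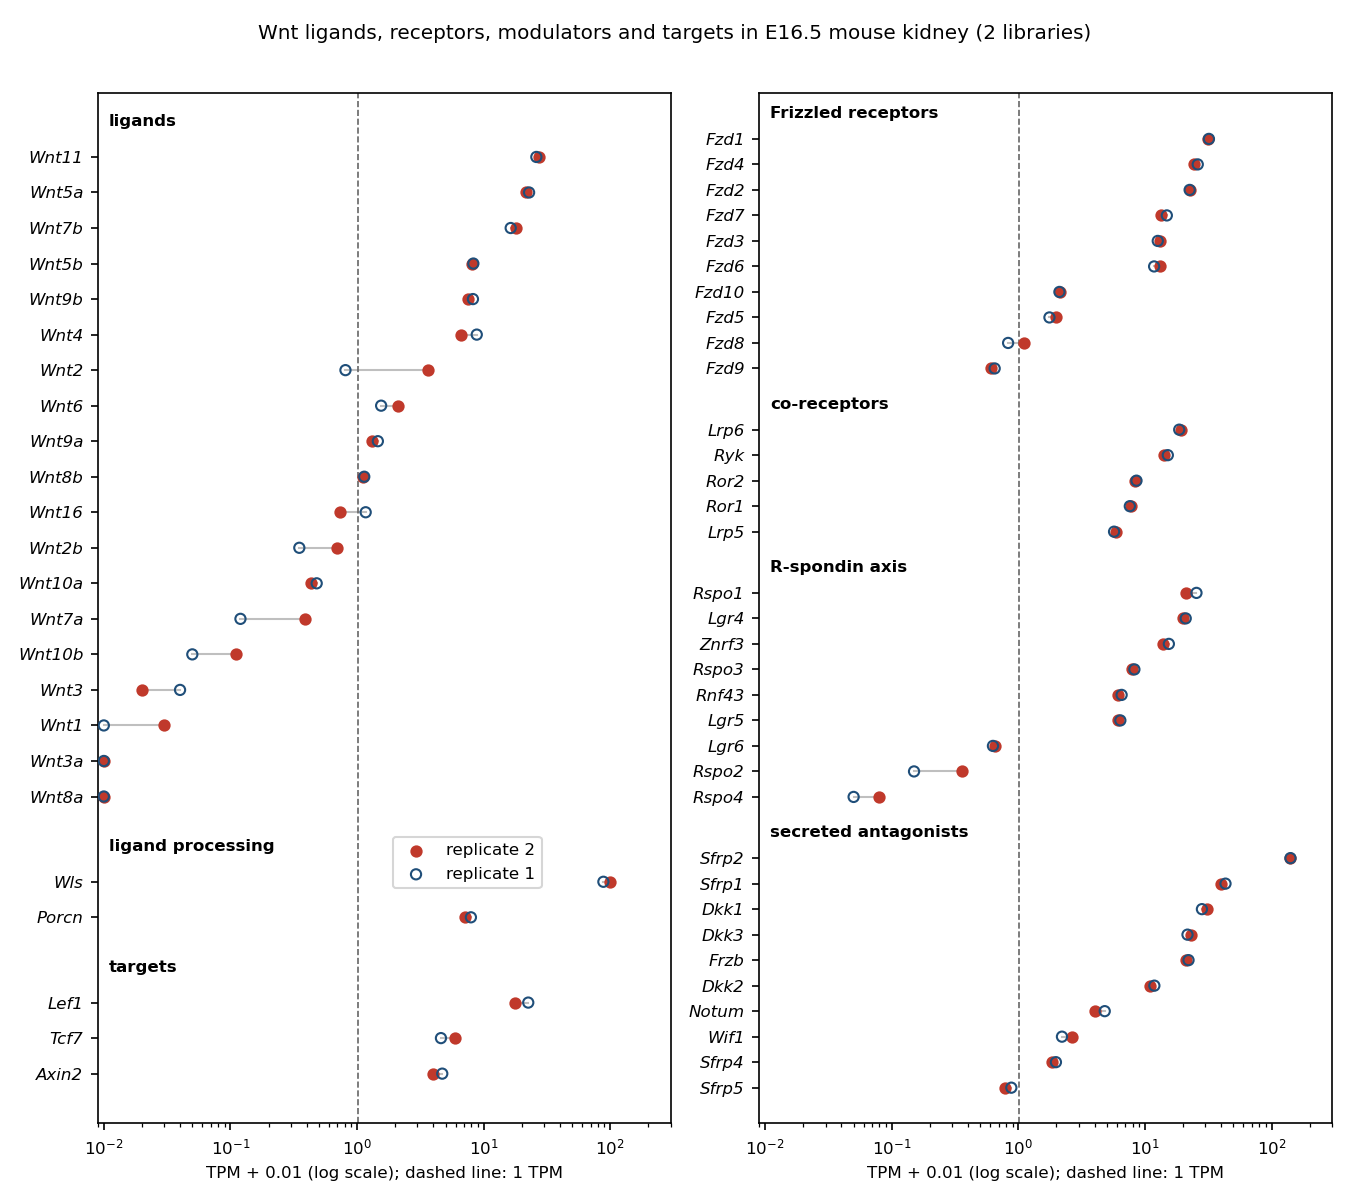
Level of each of the 58 members as TPM + 0.01 on a log axis, grouped by role and ordered by mean level; filled circles are replicate 2, open circles replicate 1, and the dashed line marks 1 TPM. Wnt11 leads the ligands at 27.4 TPM in replicate 2 and 26.1 TPM in replicate 1, Sfrp2 leads the antagonists at 140 and 141 TPM, and Wnt2 shows the widest gap between libraries among members above 1 TPM in either.

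Among the ligands, 6 genes carried most of the transcripts. Wnt11 (ENSMUSG00000015957, chr7:98835112-98855195, GRCm38) was at 27.4 TPM in replicate 2 and 26.1 TPM in replicate 1, a mean of 26.7 ± 0.97 TPM (SD, n = 2). Wnt5a, a ligand of mesenchymal tissue that mostly acts without beta-catenin, was at 21.8 TPM in replicate 2 and 22.8 TPM in replicate 1. Wnt7b, the ligand known for the collecting duct, was at 17.9 TPM in replicate 2 and 16.3 TPM in replicate 1. Neighbours in the order were called apart where the deposited TPM bounds, which cover estimation within a library, did not overlap in either library. By that rule Wnt11 and Wnt5a were not told apart, Wnt5a stood above Wnt7b, and Wnt7b above Wnt5b.

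Wnt5b, which is close kin of Wnt5a, was at 8.10 TPM in replicate 2 and 8.28 TPM in replicate 1. Wnt9b, the inducer made by the ureteric epithelium, was at 7.50 TPM in replicate 2 and 8.22 TPM in replicate 1, and Wnt4, made by the aggregates it induces, at 6.67 and 8.81 TPM. Neighbours among these 3 ligands were not told apart, and the order of Wnt9b and Wnt4 turned round between the libraries. Together the 6 ligands held 89.5% of the ligand TPM in replicate 2 and 92.8% in replicate 1, and Wnt11 with Wnt5a held 49.3% and 50.1%. Below Wnt4 came a gap: Wnt4 stood above Wnt2 in both libraries, and no neighbours from Wnt2 down were told apart.

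The remaining ligands were low or not detected. Wnt6 was at 2.11 TPM in replicate 2 and 1.54 TPM in replicate 1, Wnt9a at 1.31 and 1.45 TPM, and Wnt8b at 1.10 and 1.13 TPM. Wnt16 lay on either side of the threshold, at 0.73 TPM in replicate 2 and 1.16 TPM in replicate 1, as did Wnt2 at 3.63 and 0.80 TPM. Wnt2b, Wnt10a, Wnt7a, Wnt10b, Wnt3 and Wnt1 were under 1 TPM in both libraries. Wnt3a and Wnt8a had 0 counts in each library. For Wnt3a a count of 0 allows up to 0.0452 TPM in replicate 2 and 0.0491 TPM in replicate 1, and for Wnt8a up to 0.0731 and 0.0793 TPM, taking 3 counts as the limit and covering counting error only.

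Of the 19 ligand genes, 8 lie as 4 pairs of close neighbours in the genome, within 100 kb of each other, and in 3 pairs the bounds of the neighbours did not overlap in either library. Wnt9b was at 7.50 TPM in replicate 2 and 8.22 TPM in replicate 1, while Wnt3, 24329 nt away on chromosome 11, was at 0.01 and 0.03 TPM. Wnt9a was at 1.31 TPM in replicate 2 and 1.45 TPM in replicate 1, while Wnt3a, 16176 nt away on the same chromosome, had no count. Wnt6 was at 2.11 TPM in replicate 2 and 1.54 TPM in replicate 1, while Wnt10a, 6194 nt away on chromosome 1, was at 0.42 and 0.47 TPM. The levels of Wnt10b and Wnt1, 11707 nt apart on chromosome 15, were at or below 0.10 TPM and were not told apart.

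Of the ligand processing genes, 1 was above every ligand. Wls (chr3:159839672-159938664, GRCm38), the carrier that takes Wnt proteins to the cell surface, was at 98.7 TPM in replicate 2 and 88.2 TPM in replicate 1. Porcn, the enzyme that attaches the lipid, was at 7.08 TPM in replicate 2 and 7.92 TPM in replicate 1. Wls stood above Porcn in both libraries.

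Of the Frizzled receptors, 6 were above 10 TPM in both libraries. Fzd1 (chr5:4753839-4758035, GRCm38) led at 31.7 TPM in replicate 2 and 32.0 TPM in replicate 1. Fzd4 was at 24.2 TPM in replicate 2 and 26.1 TPM in replicate 1 and Fzd2 at 22.8 and 22.5 TPM. Fzd1 stood above Fzd4, and Fzd4 and Fzd2 were not told apart. Fzd7, Fzd3 and Fzd6 ranged from 11.8 to 14.9 TPM and neighbours among them were not told apart. Between Fzd6 and Fzd10 the levels dropped, with Fzd10 at 2.14 TPM in replicate 2 and 2.10 TPM in replicate 1, Fzd5 at 1.99 and 1.75 TPM, Fzd8 at 1.09 and 0.82 TPM and Fzd9 at 0.60 and 0.64 TPM. The first 6 receptors held 95.3% of the Frizzled TPM in replicate 2 and 95.8% in replicate 1.

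Of the co-receptors of the beta-catenin branch, Lrp6 was at 19.1 TPM in replicate 2 and 18.6 TPM in replicate 1, and Lrp5 at 5.90 and 5.69 TPM. Lrp5 was the lowest of the 5 co-receptors. Of those for the other branch, the kinase-like receptor Ryk was at 14.2 TPM in replicate 2 and 15.1 TPM in replicate 1, Ror2 at 8.33 and 8.56 TPM and Ror1 at 7.80 and 7.58 TPM. Ror2 and Ror1 were not told apart, and the other neighbours in this order were.

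In the R-spondin axis, 2 of 4 R-spondins and 2 of 3 Lgr receptors were detected, with both ubiquitin ligases. Rspo1, which amplifies Wnt signals by holding the ligases back, was at 21.1 TPM in replicate 2 and 25.5 TPM in replicate 1, and Rspo3 was at 7.93 and 8.24 TPM. Rspo2 was at 0.35 TPM in replicate 2 and 0.14 TPM in replicate 1 and Rspo4 at 0.07 and 0.04 TPM. Among the receptors, Lgr4 was at 20.1 TPM in replicate 2 and 21.0 TPM in replicate 1, Lgr5, known as a stem cell marker of several epithelia, at 6.08 and 6.38 TPM, and Lgr6 at 0.64 and 0.62 TPM. The ligase Znrf3 was at 13.9 TPM in replicate 2 and 15.4 TPM in replicate 1 and its relative Rnf43 at 6.06 and 6.53 TPM. Lgr4 stood above Znrf3 and Znrf3 above Rspo3, while Rspo3, Rnf43 and Lgr5 were not told apart as neighbours.

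The secreted antagonists were led by Sfrp2 (chr3:83766321-83774316, GRCm38), which binds Wnt proteins through a domain like that of Frizzled. It was at 140 TPM in replicate 2 and 141 TPM in replicate 1, which is 50.9% and 50.7% of the TPM of all 10 antagonists. Its relative Sfrp1 was at 39.8 TPM in replicate 2 and 43.2 TPM in replicate 1 and Frzb at 20.9 and 22.1 TPM, while Sfrp4 was at 1.82 and 1.97 TPM and Sfrp5 at 0.78 and 0.87 TPM. Among the Dickkopf genes, Dkk1, whose protein blocks Lrp5 and Lrp6, was at 30.7 TPM in replicate 2 and 28.2 TPM in replicate 1, the divergent Dkk3 at 23.1 and 21.7 TPM and Dkk2 at 11.0 and 11.9 TPM. Notum, which removes the lipid from Wnt proteins, was at 4.01 TPM in replicate 2 and 4.80 TPM in replicate 1, and Wif1, which binds them, at 2.63 and 2.20 TPM. Of the 9 neighbours in this order 7 were told apart, Sfrp2 over Sfrp1 among them.

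The 3 genes that are commonly read as targets of the beta-catenin branch were all detected. Lef1, which also acts with beta-catenin on DNA, was at 17.6 TPM in replicate 2 and 22.5 TPM in replicate 1. Tcf7, its relative, was at 5.96 TPM in replicate 2 and 4.59 TPM in replicate 1. Axin2, a feedback inhibitor, was at 3.98 TPM in replicate 2 and 4.70 TPM in replicate 1. Lef1 stood above Tcf7 in both libraries, and Tcf7 and Axin2 were not told apart.

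Other genes of the pathway, from 4 lists with 53 genes, give the setting of these levels, and 48 of the 53 were detected (90.6%, against 62.2% of all protein-coding genes). All 14 genes of the destruction complex and the Dishevelled family were detected, from beta-catenin itself (Ctnnb1) at 446 TPM in replicate 2 and 422 TPM in replicate 1 down to Apc2 at 1.38 and 1.54 TPM. The kinase Csnk1a1 was at 235 TPM in replicate 2 and 241 TPM in replicate 1, and Fbxw11, which marks beta-catenin for breakdown, at 80.0 and 74.8 TPM. All 11 nuclear partners of beta-catenin were detected, with Tcf7l2 highest by mean level at 42.3 TPM in replicate 2 and 55.5 TPM in replicate 1, and Pygo1 lowest at 3.62 and 4.28 TPM. The coactivator Bcl9 was at 44.4 TPM in replicate 2 and 48.7 TPM in replicate 1, and the inhibitor Ctnnbip1 at 47.5 and 43.5 TPM, so that both were above Tcf7l2 in replicate 2 and below it in replicate 1. Of 19 other modulators outside the cell or in its membrane 14 were detected. The heparan sulphate proteoglycan Gpc3 was highest at 814 TPM in replicate 2 and 807 TPM in replicate 1 and Sostdc1, an antagonist of Wnt and BMP signals, was at 139 and 134 TPM. Igfbp4 was at 693 TPM in replicate 2 and 625 TPM in replicate 1, and the antagonist gene Dkk4 was lowest at 0 and 0.07 TPM. All 9 feedback genes and common targets were detected, including Ccnd1 at 154 TPM in replicate 2 and 189 TPM in replicate 1, Myc at 98.0 and 109 TPM and Nkd1 at 29.0 and 27.8 TPM, with Sp5 lowest at 1.78 and 1.55 TPM.

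Most members, like most genes, hardly differed between the pools. The comparison used rounded expected counts, scaled between the libraries by TMM, as a log2 ratio of replicate 2 over replicate 1 taken where the mean reached 1 CPM (counts scaled to library size). With 1 library on each side there is no replicate check, and intervals cover counting error only. Of the 46 members that entered, 35 lay within 0.25 of 0 on the log2 scale (76.1%, against 79.2% of all 15362 genes), and 2 were past 2-fold (4.35%, against 2.32% of all genes). Both were higher in replicate 2, a direction that 0.579% of all genes took, while 1.74% were past 2-fold lower.

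Wnt2 (ENSMUSG00000010797), a ligand known from the mesenchyme of the embryonic lung, had 171 counts in replicate 2 and 36 in replicate 1. This is a log2 ratio of 2.07, or a 4.37-fold ratio with a 95% exact conditional interval from 3.04 to 6.45. In replicate 1 alone Wnt2 was below detection at 0.80 TPM. A transcript with no match in the annotation used here held 52.2% of its TPM in replicate 2 and 39.0% in replicate 1. Lgr6 had 94 counts in replicate 2 and 40 in replicate 1, a 2.16-fold ratio with an interval from 1.48 to 3.22. Its TPM was nearly equal, at 0.64 in replicate 2 and 0.62 in replicate 1. In replicate 1 the deposited tables placed 39.6% of that TPM on a short processed transcript, Lgr6-203, from 1.47 expected counts, and in replicate 2 none. Just under the threshold, Wnt2b, also known from the lung mesenchyme, had 59 counts in replicate 2 and 27 in replicate 1 and a log2 ratio of 0.96 (interval of the ratio from 1.26 to 3.30).

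Below 1 CPM, Wnt7a had 28 counts in replicate 2 and 8 in replicate 1, and Rspo2 had 28 and 10 counts. With no filter on counts, 4 of the 58 members were past 2-fold, against 5.82% of all genes. Wnt2, Wnt2b, Wnt7a, Rspo2 and Lgr6 all had more counts in replicate 2, but they were named for the size of their ratios. In that library the 4 lung markers summed to 232 TPM, against 0.67 TPM in replicate 1. The gonad, adrenal cortex, skeletal muscle, and ureter mesenchyme and smooth muscle lists also had higher sums there, and the adrenal medulla list a lower one. The part of these marker differences in the values of these 5 genes was not tested. None of the 35 members with a mean of at least 5 CPM was past 2-fold, against 0.886% of all genes at that level.

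**Figure D2:**
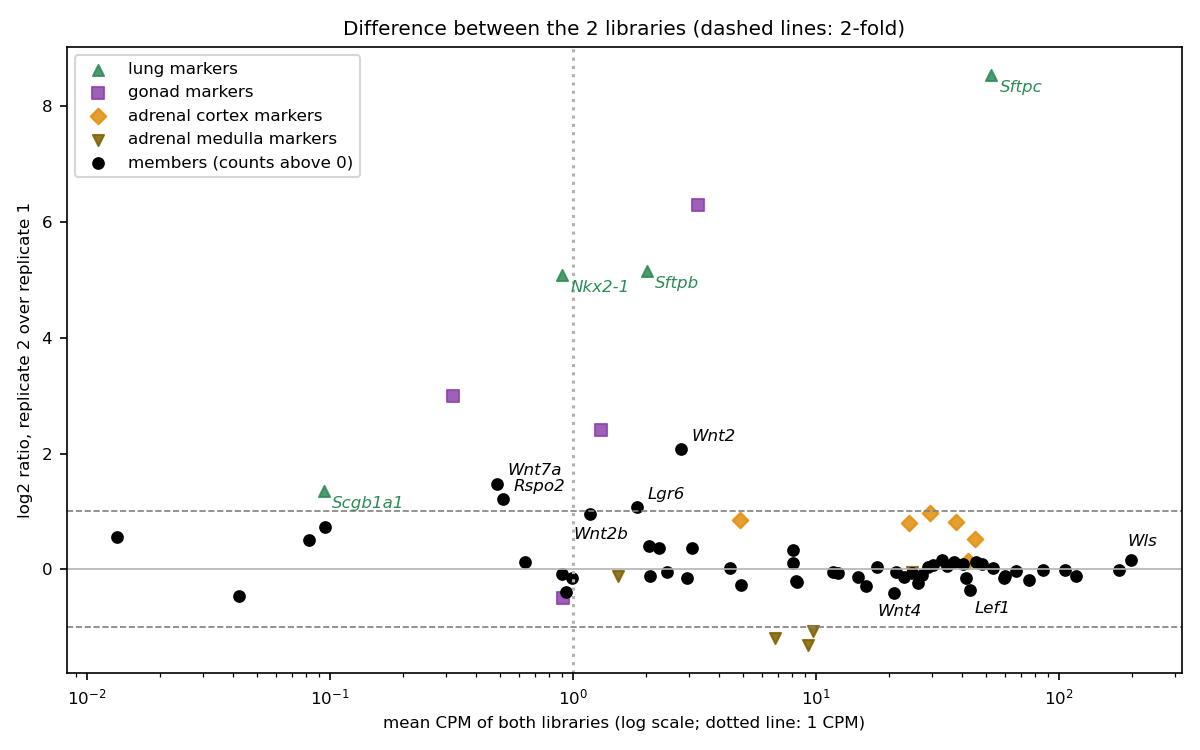
Log2 ratio of replicate 2 over replicate 1 against the mean CPM of both libraries (log axis) for members with counts (black circles) and markers of lung, gonad, adrenal cortex and adrenal medulla (coloured symbols); dashed lines mark 2-fold and the dotted line 1 CPM. Members lie close to 0 above 5 CPM, and Wnt2 at 2.07 and Lgr6 just above 2-fold are the members past 2-fold to the right of the dotted line.

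Smaller differences were read from the deposited TPM bounds, which did not overlap between the libraries for 8 of the 42 detected members (19%, against 21.2% of detected protein-coding genes). Wnt4 was at 6.67 TPM in replicate 2 (bounds 6.05 to 7.02) and 8.81 TPM in replicate 1 (bounds 8.02 to 9.19). Lef1 was at 17.6 TPM in replicate 2 (bounds 16.4 to 18.2) and 22.5 TPM in replicate 1 (bounds 21.0 to 23.1). Rspo1, Znrf3 and Sfrp1 were also lower in replicate 2 by this rule, which makes 5 members (7.91% of detected protein-coding genes did so), and Wls, Fzd6 and Tcf7 were higher, which makes 3 (13.3% did so). Beside these, all 5 ureteric tip markers were lower in replicate 2, at a sum of 161 TPM against 180 TPM in replicate 1. The nephron progenitor markers summed to 240 and 265 TPM with 5 of 6 lower in replicate 2. All 5 proximal tubule markers were higher in replicate 2, at 393 and 340 TPM. The early nephron markers split, with 3 of 5 higher in replicate 2, at 317 TPM in replicate 2 and 323 TPM in replicate 1. So did the podocyte, collecting duct, cortical stroma and endothelium markers, with some genes higher and some lower in replicate 2. The part of these marker differences in the values of Wnt4, Lef1 and Rspo1 was not tested.

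Transcript estimates divided each gene level among annotated transcripts, in some members with wide bounds. Of the 42 detected members 16 have a single transcript in the deposited tables. The transcript with the highest TPM differed between the libraries in 3 members (7.14%, against 6.05% of detected protein-coding genes): Lgr4, Notum and Wnt11. By mean TPM it was not annotated as protein coding in 2 members (4.76%, against 6.95%): Rnf43 and Wnt11.

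Wnt11 was the ligand with the highest gene level. By the transcript estimates, more of that level lay on transcripts without the full frame than with it, by a small margin in replicate 2. The transcripts annotated as targets of nonsense-mediated decay held 51.1% of its TPM in replicate 2 and 63.9% in replicate 1. Wnt11-202, with an open frame of 49 codons, was at 10.2 TPM (bounds 8.03 to 12.0) in replicate 2 and 13.3 TPM (bounds 10.4 to 15.2) in replicate 1. Wnt11-205, with the full frame of 354 codons, was at 12.5 TPM (bounds 9.54 to 14.6) in replicate 2 and 8.77 TPM (bounds 5.51 to 11.0) in replicate 1, so that the bounds of each transcript overlapped between the libraries and the leading one was not told apart. Wnt11-204, with 154 codons, held 13.8% in replicate 2 and 12.8% in replicate 1, and Wnt11-201, with the full frame and a longer end, held 3.40% and 2.46%. By transcripts that encode the full frame, Wnt11 held 13.4 TPM in replicate 2 and 9.41 TPM in replicate 1. That was below the coding transcript Wnt7b-201, at 17.15 TPM in replicate 2 and 15.47 TPM in replicate 1, so the lead of Wnt11 holds for gene totals only. Wnt5a has 2 coding transcripts, Wnt5a-201 at 11.1 TPM in replicate 2 and 12.2 TPM in replicate 1 and Wnt5a-202 at 7.63 and 9.61 TPM. Which ligand leads by coding transcripts was not determined.

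These transcripts are annotated to begin at 2 start sites, 3733 nt apart, that lie before the same start codon at position 98839108 of chromosome 7. Transcripts beginning within 200 nt of the upstream site held 40.7% of the TPM in replicate 2 and 53.6% in replicate 1, and those at the downstream site held 59.3% and 46.4%. The RefSeq windows of both sites (GRCm38.p6, from 250 bases before to 50 after the start, plus strand, chr7:98834862-98835161 and chr7:98838595-98838894) are shown because the estimates placed TPM of Wnt11 at both. Use of the starts themselves was not measured. Capitals mark TATAAA, read on the gene's strand, and a Tcf/Lef word read on both strands, which is one of CTTTGAA and CTTTGAT or else CTTTGTA and lastly CTTTGTT, letters that Tcf and Lef proteins are known to bind.
Wnt11 upstream start: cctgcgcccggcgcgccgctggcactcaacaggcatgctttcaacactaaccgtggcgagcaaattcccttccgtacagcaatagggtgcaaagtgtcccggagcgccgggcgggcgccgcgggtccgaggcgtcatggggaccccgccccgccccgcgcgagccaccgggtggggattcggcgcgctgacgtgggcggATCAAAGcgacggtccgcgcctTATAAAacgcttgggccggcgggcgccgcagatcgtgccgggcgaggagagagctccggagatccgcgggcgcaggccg
Wnt11 downstream start: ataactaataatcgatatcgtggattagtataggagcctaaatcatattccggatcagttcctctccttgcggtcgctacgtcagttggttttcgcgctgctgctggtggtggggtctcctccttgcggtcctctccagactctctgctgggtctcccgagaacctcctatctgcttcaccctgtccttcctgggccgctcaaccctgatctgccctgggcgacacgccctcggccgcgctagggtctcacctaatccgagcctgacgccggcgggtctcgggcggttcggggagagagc
The upstream window holds TATAAA 29 bases before its start and CTTTGAT, on the other strand, 51 bases before it. These do not overlap. The downstream window holds neither.

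Over all members, 39 had RefSeq windows, 47 in all, and 6 windows held a Tcf/Lef match (12.8%, against 16.9% of 32851 windows of mouse genes), while 4 held TATAAA (8.51%, against 8.32%). The window of Dkk1, the highest Dickkopf gene, was the one among the members with several Tcf/Lef matches. Its transcript in the deposited tables is annotated to begin upstream of the RefSeq start, at position 30549665 of chromosome 19, so that by GENCODE these matches lie inside its first exon and not before it. Such a match is a description of the letters and not evidence of binding.

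Lgr4 (chr2:109917647-110014257, GRCm38), the receptor gene with the highest level in the R-spondin axis, had a near equal total in the pools but different transcript estimates. Its counts were 2470 in replicate 2 and 2317 in replicate 1, a ratio of 0.982 with an interval from 0.927 to 1.04. Lgr4-201 was at 11.6 TPM (bounds 8.20 to 14.6) in replicate 2 and 2.55 TPM (bounds 0.80 to 5.55) in replicate 1, or 57.5% and 12.2% of the gene. Lgr4-202 was at 8.53 TPM (bounds 4.95 to 11.5) in replicate 2 and 18.0 TPM (bounds 14.3 to 19.4) in replicate 1, or 42.5% and 85.9%. The bounds of neither transcript overlapped between the libraries, a combination with a change of leading transcript that 0.135% of detected protein-coding genes showed. That combination was chosen for counting after the values of Lgr4 were seen. With 1 library on each side, this rests on estimates within each library.

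The transcripts of Lgr4 share their ends and differ by exon 2, of 72 nt, which lies wholly in the coding part and adds 24 codons to the 927 of Lgr4-202. The exon is shown because it is what separates the transcripts whose estimates differed (plus strand, chr2:109970692-109970763, from the transcripts of GENCODE M21).
Lgr4 exon 2: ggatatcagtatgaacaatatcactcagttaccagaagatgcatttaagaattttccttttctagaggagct

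Lef1 had several transcripts, each with like shares in the libraries. Lef1-202 held 48.0% of its TPM in replicate 2 and 51.4% in replicate 1, Lef1-201 held 24.2% and 21.0%, and Lef1-204 held 22.8% and 21.5%. Lef1-201 carries a coding exon 6 of 84 nt, or 28 codons, that the other two lack (plus strand, chr3:131191023-131191106). It is shown because it separates the full transcript from the shorter ones, which held most of the gene's TPM.
Lef1 exon 6: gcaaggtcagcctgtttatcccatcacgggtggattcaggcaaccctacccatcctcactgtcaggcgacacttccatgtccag
Lef1-204 also lacks exon 11, of 41 nt, and its frame ends further downstream.

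By the transcript estimates, most of the Tcf7 TPM lay on the transcript annotated at the downstream of its 2 RefSeq start sites. These sites lie 419 nt apart on the minus strand of chromosome 11, and use of the starts themselves was not measured. Tcf7-201, from the downstream site, was at 5.16 TPM in replicate 2 and 4.35 TPM in replicate 1, or 86.6% and 94.6% of the gene. Tcf7-202, from the upstream site, was at 0.80 TPM in replicate 2 and 0.25 TPM in replicate 1. Both are annotated with the same frame of 303 codons, which begins at position 52282217, downstream of both starts. Tcf7 has only these 2 transcripts among the deposited values, so a transcript with another start or a longer frame has no value here. The frame of 303 codons is that of these entries and need not be the longest of the gene. The RefSeq windows of both starts hold neither a Tcf/Lef match nor TATAAA.

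Among the remaining members, Rnf43 was led by a transcript with a retained intron, Rnf43-206, at 41.2% of its TPM in replicate 2 and 41.0% in replicate 1. Its full coding transcripts Rnf43-209 and Rnf43-202, of 784 codons each, held 23.3% and 26.2% in replicate 2 and 33.8% and 23.6% in replicate 1. Notum had 4 transcripts with wide bounds, of which the retained-intron Notum-201 held 26.9% in replicate 2 and 32.6% in replicate 1. Wif1 had 24.3% of its TPM on transcripts that are not protein coding in replicate 2 and 44.1% in replicate 1. For 5 of 42 detected members (11.9%) the mean share of such transcripts was over 25%, against 19.9% of detected protein-coding genes. By the estimates Wnt5b was divided between Wnt5b-203, of 372 codons, at 54.8% in replicate 2 and 51.7% in replicate 1, and Wnt5b-202, of 321 codons, at 45.2% in replicate 2 and 34% in replicate 1, with bounds that overlapped. Wnt5b-204, of 359 codons, held 14.3% in replicate 1 and none in replicate 2. The bounds of Wnt5b-203 ran from 8.7e-05 to 5.02 TPM in replicate 2 and from 0.05 to 6.07 TPM in replicate 1, so the division was not resolved.

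**Figure D3:**
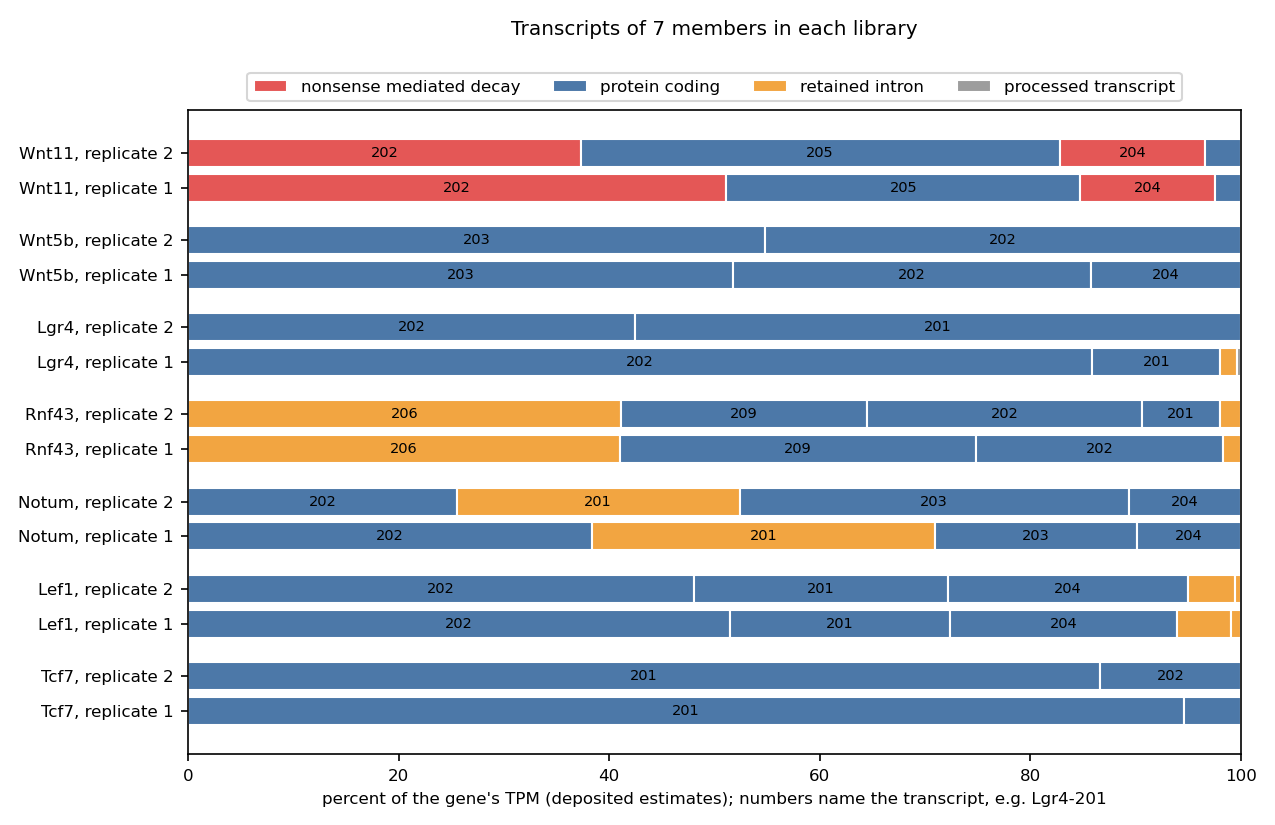
Percent of each gene's TPM on each transcript, as deposited, for 7 members with replicate 2 above replicate 1; colours give the annotated type and numbers the transcript. Lgr4-201 takes 57.5% in replicate 2 and 12.2% in replicate 1, while the bars of Rnf43-206 stay at 41.2% and 41.0%.

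An annotated gene on the opposite strand overlaps exons of 10 members, and no source used here states whether counting took strand into account. Of these members, 8 have such a neighbour with values in the deposited tables. The highest among those, Gm26771 over Sfrp2, was at 3.34 TPM in replicate 2 and 2.30 TPM in replicate 1, beside 140 and 141 TPM for Sfrp2.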

How the data were processed

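The files hold total RNA-seq of 2 libraries of 1 group, with values per gene and per transcript for each library. The deposited notes name assembly mm10 with annotation M4. No aligner, quantifier or strand setting is stated in the sources used here. The authors deposited expected counts, which are estimates per gene or transcript, with effective lengths. The deposited TPM (also as posterior mean) and FPKM values are scaled by length and library. The deposited lower and upper TPM bounds, handled as a signal, express the uncertainty of estimation within a library, and their level is not given. They follow the posterior estimate, so a TPM can lie just outside them. The deposited percent of a transcript is its share of its gene.

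Names, types and coordinates were taken by stable ID from GENCODE M21 (GRCm38), and promoter windows from RefSeq (GRCm38.p6). Exon sequences were cut from the GENCODE transcripts. The named genes are all 58 members, with the 3 highest and the lowest gene of each further list, and markers by sums. The members and lists were chosen with earlier results of these data known. Of 53 further pathway genes and 76 markers all matched.

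Entries other than mouse genes (2.08% of counts for replicate 2, 2.82% for replicate 1) were left out of library sizes. Expected counts were rounded, scaled by TMM in edgeR 4.0.16 (R 4.3.3) and turned into log2 ratios with a prior count of 2. Intervals at 95% are exact conditional binomial ones. The replicates are separate pools per the labels. The ratio step was tested on simulated data. Alternatives covered thresholds, units, pseudocounts, scaling (DESeq2 1.42.0 size factors, library size, spike-ins), filters and each library alone. Tables used Python 3.11.15, pandas 2.3.3, numpy 2.4.6 and scipy 1.17.1.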

Additional observations from a re-analysis of the deposited data

How the results depend on the processing

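Of 137 alternative values over 17 results, 103 stayed within the spread or within 1.5 times the count, 33 moved and 1 reversed. The differences from the ligands in median log2 level are given in the order Frizzled receptors, co-receptors, antagonists, R-spondin axis, targets. With a pseudocount of 1 they were 2.70, 2.16, 2.98, 1.79 and 1.57, and as means over members 2.35, 2.99, 3.06, 1.47 and 2.61. Among detected members they were 0.77, 0.10, 1.44, 0.47 and -0.57, where the sign of the targets turned. With a pseudocount of 0.01 those of co-receptors, antagonists and R-spondin axis were 2.91, 3.80 and 2.49, and from FPKM 2.76, 3.64 and 2.34. From posterior mean TPM those of Frizzled receptors, co-receptors, antagonists and targets were 3.11, 2.55, 3.40 and 1.85. From protein-coding transcripts those of antagonists and R-spondin axis were 3.62 and 1.98. The direction of the first 4 differences held in every alternative run. At 5 TPM 1 target was detected. The number of members past 2-fold was 4 with no filter on counts, 0 at a mean of 5 CPM and 1 from deposited TPM, with 5.82% and 0.886% of all genes past it under the first and second of these. Spike-in scaling shifted the median log2 ratio of all genes to 0.43 and put 3 members past 2-fold, against 3.12% of all genes, with Wnt2b added by the common shift. The leading transcript differed in 5 members by posterior mean and in 5 with no filter on level. It was not protein coding in 1 to 2 members when 1 library was left out: without replicate 1 Wnt11 was led by a coding transcript. Within their roles 52 members kept their rank without replicate 1 and 43 without replicate 2. Where a filter or the set of members changed, fewer or more genes entered by construction, and for the other moves the cause was not tested. No paired analysis was possible because the samples form 1 group. At this depth, levels of members under about 1 TPM rest on fewer than 100 counts, and with 1 library a side no difference between the pools has a replicate check.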
